A study of Mus musculus with 9 samples.

Results

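Expression of 9 genes that encode enzymes between squalene and cholesterol was followed along the mouse small intestine. The genes were chosen by their place in the pathway, and each was read from the probe sets annotated to that gene symbol alone, the brightest of which (highest mean log2(signal + 16) over the arrays) stood for the gene. All 9 genes had such a probe set and passed the filter on low values, of 18193 genes represented on the arrays in all. Male C57BL/6J mice, 9 weeks old at the start, ate one of 3 high-fat diets for 2 weeks: HF-PO with palm oil, HF-OO with olive oil or HF-SO with safflower oil, in rising order of the ratio of polyunsaturated to saturated fat (P/S). The small intestine was cut into 3 equal parts from proximal (SI1) over middle (SI2) to distal (SI3), and mucosa was scraped off. For each part and diet, RNA from 6 mice went into 1 pool. This gave 9 arrays, 1 for each part and diet. All groups were on a high-fat diet, and arrays of the low-fat diet were not analysed here.

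Cells make cholesterol from acetyl-CoA through mevalonate and farnesyl diphosphate, and squalene is the first intermediate committed to sterols. Squalene is oxidised and folded into lanosterol, which then loses its extra methyl groups and has its double bonds reduced or moved until cholesterol is left. The transcription factor SREBP2, which is held back when membranes are rich in sterol, drives most genes of the pathway. The intestinal mucosa, which also absorbs cholesterol and reabsorbs bile acids, is one of the main sites of sterol synthesis in rodents.

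Promoter sequences were examined because 8 of the 9 genes moved together along the intestine. RefSeq windows on GRCm38.p6 were found for 7 of the 9 genes, all but Fdft1 and Sqle, and 250 bases before each start site were searched on both strands for 4 short motifs. The core letters of the sterol regulatory element, TCACCCC, were in 0 of the 7 genes and in 4.31% of all 32851 windows of that length. Only this exact spelling was searched, so variants of the element were not counted and its absence is not shown. The NF-Y box CCAAT, bound by a factor that works beside SREBP2, was present in 7 of 7 against 33.8% of all windows. The Sp1 box GGGCGG was also in 7 of 7, against 32.7% of all windows, and the E-box CACGTG in 2 (Hsd17b7 and Dhcr7), against 6.02%. Dhcr7 had 3 windows, any of which could count here, and matches to different motifs did not overlap in the sequences shown. These counts describe letters and are not evidence of binding. Shown are 3 genes that rose and, last, Dhcr7, which fell. The lines run 5′ to 3′ along the gene's strand, and capitals mark matches to CCAAT or GGGCGG on either strand.
Cyp51, chr5:4104698-4104947, minus strand: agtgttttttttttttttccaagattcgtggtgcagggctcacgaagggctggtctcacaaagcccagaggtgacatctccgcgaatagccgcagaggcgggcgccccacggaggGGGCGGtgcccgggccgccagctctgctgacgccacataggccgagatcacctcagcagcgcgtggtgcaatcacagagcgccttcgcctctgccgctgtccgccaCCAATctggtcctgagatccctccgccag
Msmo1, chr8:64733579-64733828, minus strand: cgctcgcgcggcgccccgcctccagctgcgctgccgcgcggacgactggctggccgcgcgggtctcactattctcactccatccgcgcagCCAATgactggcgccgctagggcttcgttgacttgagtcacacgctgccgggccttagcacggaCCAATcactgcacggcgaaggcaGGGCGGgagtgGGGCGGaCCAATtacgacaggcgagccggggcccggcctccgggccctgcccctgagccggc
Nsdhl, chrX:72918271-72918520, plus strand: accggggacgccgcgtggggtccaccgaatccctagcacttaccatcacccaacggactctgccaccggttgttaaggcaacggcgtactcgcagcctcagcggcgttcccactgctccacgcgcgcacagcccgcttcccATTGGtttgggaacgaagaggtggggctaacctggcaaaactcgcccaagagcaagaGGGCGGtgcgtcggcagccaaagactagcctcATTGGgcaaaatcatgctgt
Dhcr7, chr7:143829964-143830213, plus strand, the window of 3 with most matches: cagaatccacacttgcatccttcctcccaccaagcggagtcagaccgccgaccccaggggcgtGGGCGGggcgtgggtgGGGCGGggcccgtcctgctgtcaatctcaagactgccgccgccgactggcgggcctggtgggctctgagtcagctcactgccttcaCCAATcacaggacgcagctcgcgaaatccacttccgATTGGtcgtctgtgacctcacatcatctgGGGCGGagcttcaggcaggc
Dhcr7, whose RNA went the other way, carried 2 CCAAT boxes in this window like Nsdhl, and Msmo1 carried 3. The other windows of Dhcr7 held 0 CCAAT boxes, whereas Nsdhl and Msmo1 had 1 window each.

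Values are MAS5 signals, Affymetrix's summary of a probe set on 1 array on a linear scale, scaled by the authors to a 2% trimmed mean of 500 on every array. Median signals lay between 94.4 and 105.9, and the 3' to 5' signal ratio of the actin control between 1.185 and 1.305. Enterocyte markers were bright in every part (the microvillus protein Vil1 had means of 27570, 29240 and 32390 in SI1, SI2 and SI3). Signals are not comparable between genes, since each probe set has its own brightness. They were therefore compared only between arrays, for 1 gene or for the sum over 1 list of markers. Parts were compared over 3 pools with limma, each pool being a block, and an adjusted p (Benjamini-Hochberg over 22519 probe sets) under 0.05 counted as a call. The 3 pools differ in diet, so their SD holds diet differences too, and nothing in the labels gives a second pool of any diet.

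The comparison of SI3 with SI1 asks how the ends of the small intestine differ. Of the 9 genes, 8 were higher in SI3 (Fdft1, Sqle, Lss, Cyp51, Tm7sf2, Msmo1, Nsdhl and Hsd17b7), with log2 differences from 0.38 to 2.05, and 1, Dhcr7, was lower, at -0.39. Among all probe sets tested, 44.3% were called, 25.0% higher in SI3 and 19.2% lower. The median difference was 0.66 over the 9 genes and 0.08 over all probe sets tested. In RNA from whole mucosa, fewer cells of a type and less RNA per cell cannot be told apart. The 3 signals of SI3 lay above all 3 of SI1 for the 8 genes that rose and below them for Dhcr7. Such separation was seen for 31.9% of all probe sets upward and 23.5% downward.

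**Figure D1:**
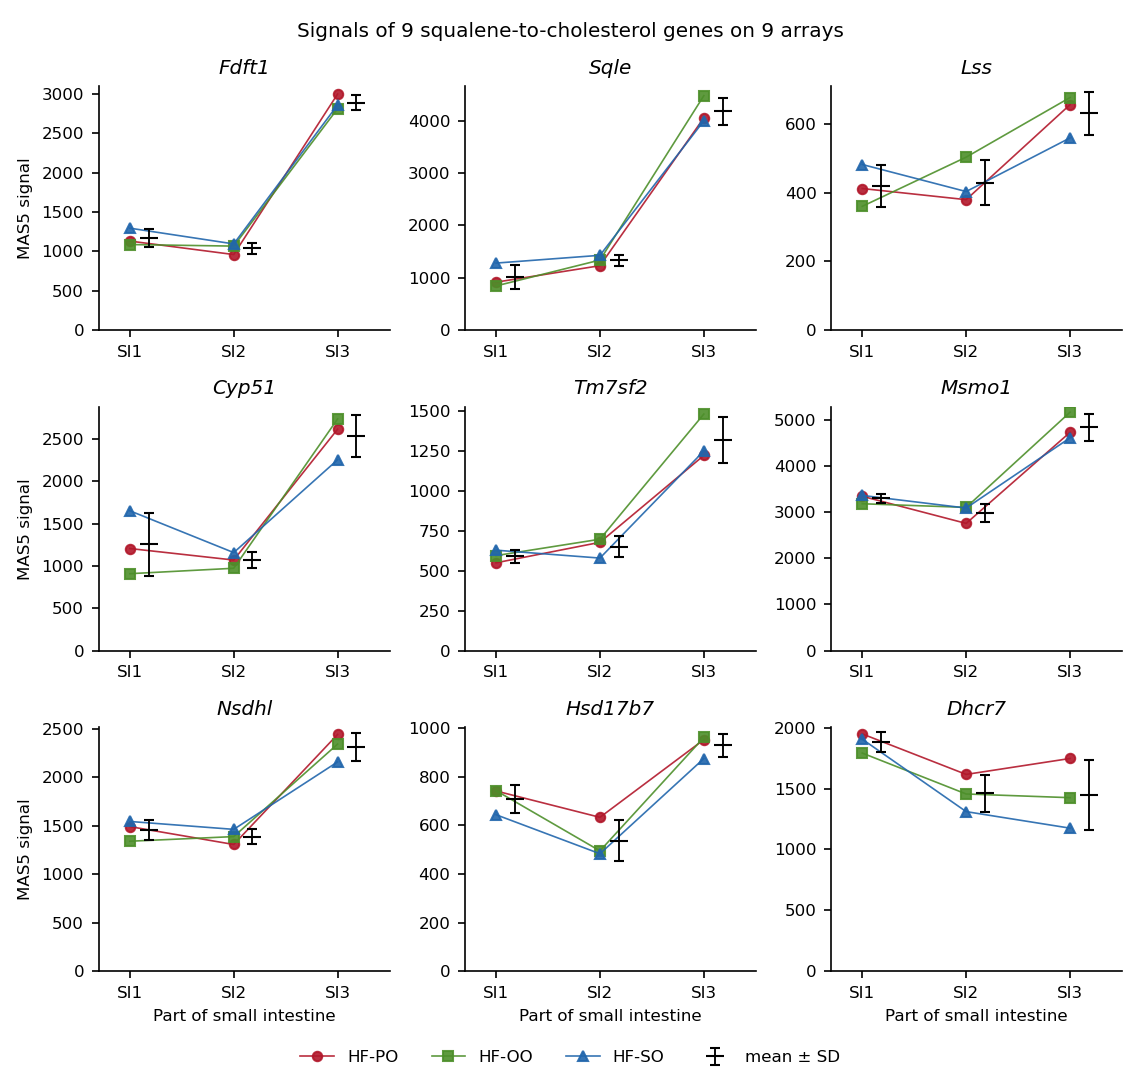
MAS5 signal (vertical axis, linear, from 0) of each of the 9 genes in SI1, SI2 and SI3, 1 panel per gene; coloured points are the 3 diet pools, joined by lines, and black bars give mean ± SD of the 3 pools. The SI3 points lie above all others in 8 panels, whereas Dhcr7 is highest in SI1.

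Sqle and Fdft1 had the largest differences between SI3 and SI1 of the 9 genes. Whether they exceeded those of other genes was not tested. With the median over all probe sets of a gene, Fdft1 had 0.81, below Tm7sf2 at 1.13. Sqle encodes squalene epoxidase, which adds oxygen to squalene and is a rate-limiting step of the pathway. Its signals were 914.0 (HF-PO), 842.1 (HF-OO) and 1278.4 (HF-SO) in SI1, 1228.6, 1336.2 and 1427.0 in SI2, and 4050.6, 4474.9 and 3994.6 in SI3. Every SI3 pool was thus far above every other pool, while SI1 and SI2 overlapped. SI3 exceeded SI1 by 2.05 on the log2 scale (SE 0.14, limma adjusted p = 6.87e-05), a 4.14-fold difference, and SI2 by 1.64 (adjusted p = 0.000582).

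Fdft1 encodes squalene synthase, which joins 2 molecules of farnesyl diphosphate. Its signals were 1131.5, 1087.4 and 1295.5 in SI1, 960.0, 1067.4 and 1095.3 in SI2, and 3001.5, 2815.4 and 2862.5 in SI3, in the same order of diets. The distal pools were close to one another and lay above all proximal and middle pools. The difference between SI3 and SI1 was 1.30 (SE 0.10, limma adjusted p = 9.05e-05), or 2.46-fold.

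Lss encodes lanosterol synthase, which folds the epoxide into the first sterol. It averaged 417.8 ± 61.07 in SI1, 428.5 ± 65.67 in SI2 and 630.6 ± 62.74 in SI3 (SD, n = 3 pools), so the distal level alone stood apart. The difference from SI1 was 0.58 (SE 0.16, limma adjusted p = 0.0212) and from SI2 0.55 (adjusted p = 0.0472). Against SI1 the adjusted p was 0.105 without the HF-PO pool and 0.097 without HF-OO, and the call was kept without HF-SO (0.0283). Against SI2 it was 0.232, 0.0889 and 0.101 without HF-PO, HF-OO and HF-SO.

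The next steps strip lanosterol of methyl groups. Cyp51, a cytochrome P450 that removes the first of them, had signals of 1206.7, 909.3 and 1652.6 in SI1, 1070.7, 973.5 and 1158.6 in SI2, and 2616.9, 2737.8 and 2255.5 in SI3 (HF-PO, HF-OO, HF-SO). Its proximal pools were the most spread of the 9 genes, yet all lay below the distal ones. SI3 exceeded SI1 by 1.04 (SE 0.19, limma adjusted p = 0.00448), or 2.06-fold, and SI2 by 1.24 (SE 0.19, adjusted p = 0.00536, or 0.0605 without the HF-PO pool).

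Tm7sf2 encodes a sterol reductase that acts on the product of Cyp51. Its signals were 550.5, 595.6 and 629.5 in SI1, 678.7, 698.3 and 580.1 in SI2, and 1223.2, 1482.4 and 1251.0 in SI3. Proximal and middle pools overlapped and the distal ones were clear of both. The difference between SI3 and SI1 was 1.13 (SE 0.11, limma adjusted p = 0.00027), which is 2.19-fold. Lbr, the nuclear envelope protein that can carry out the same reduction, rose by 0.65 (adjusted p = 0.00752), from 1796 ± 239.6 to 2820 ± 298.4.

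Msmo1, Nsdhl and Hsd17b7 act in turn to remove the remaining pair of methyl groups, as oxidase, decarboxylating dehydrogenase and ketone reductase. From SI1 to SI3 the means of Msmo1 were 3296 ± 99.04, 2982 ± 196.4 and 4834 ± 292.2 (SD, n = 3 pools), a difference between the ends of 0.55 (SE 0.09, limma adjusted p = 0.00315). Those of Nsdhl were 1457 ± 105.6, 1385 ± 77.92 and 2312 ± 143.7, a difference of 0.66 (SE 0.10, adjusted p = 0.00211). Both thus had a distal level near 1.46-fold and 1.58-fold the proximal one. The smallest rise was that of Hsd17b7, from 709.7 ± 56.82 to 930.1 ± 47.74, a difference of 0.38 (SE 0.10, limma adjusted p = 0.0186). The rise of Hsd17b7 was not called without the HF-OO pool (adjusted p = 0.0833) or without HF-SO (0.115).

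Dhcr7, which carries out the last reduction in one of the routes to cholesterol, differed from the others. Its signals were 1948.4, 1791.2 and 1905.1 in SI1, 1616.0, 1455.4 and 1310.6 in SI2, and 1746.9, 1425.1 and 1174.9 in SI3 (HF-PO, HF-OO, HF-SO). The proximal pools were the highest, and middle and distal pools overlapped widely. SI3 was below SI1 by 0.39 on the log2 scale, a difference of -0.39 with an SE of 0.11 (limma adjusted p = 0.0282). Without the HF-OO pool the adjusted p was 0.118, and without HF-SO it was 0.176 with a difference of -0.24. The 95% interval of its difference, -0.66 to -0.12, lay below those of the other 8 genes, the lowest of which began at 0.15.

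**Figure D2:**
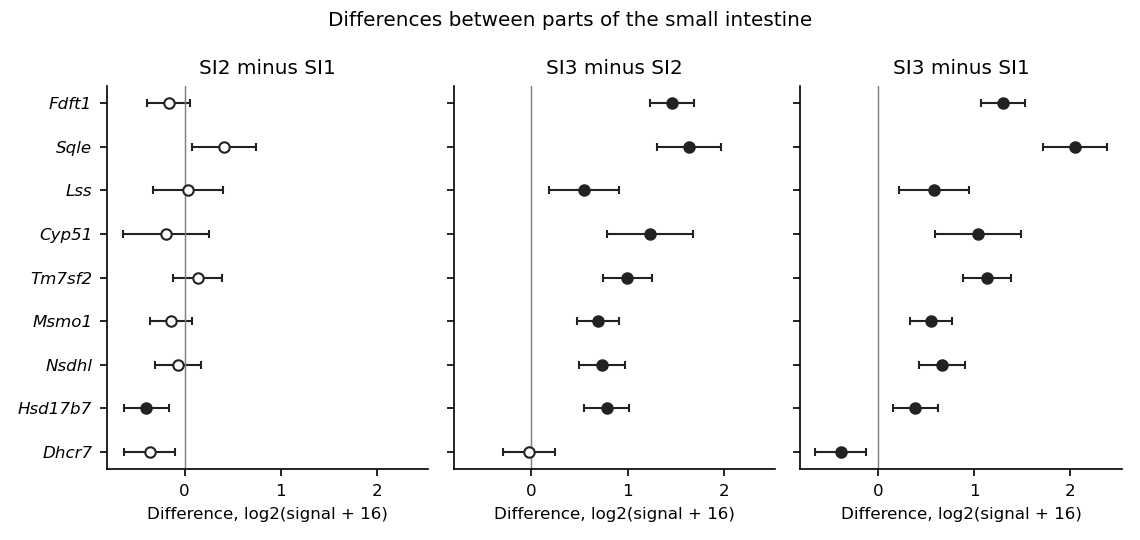
Differences in log2(signal + 16) between parts of the intestine (horizontal axis) for the 9 genes, with 95% intervals from the limma fit over 3 pools; filled points passed an adjusted p of 0.05 and open points did not. Values from SI2 to SI3 lie between 0.55 and 1.64 for 8 genes, whereas from SI1 to SI2 they lie between -0.40 and 0.41.

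The comparisons with SI2 ask where along the intestine the difference appears. Between SI1 and SI2, 0 of the 9 genes were called higher by limma, with 1 at an unadjusted p under 0.05 (Sqle, 0.41, SE 0.14, adjusted p = 0.0964), and 1 was called lower, Hsd17b7, at -0.40 (SE 0.10, adjusted p = 0.0398). The background was 15.0% of probe sets called, 8.07% higher and 6.92% lower, and the median of the 9 genes was -0.15 against 0.03 for all. Between SI2 and SI3, 8 of the 9 were called higher, the same 8 as between the ends, against 10.4% of all probe sets (21.3% in either direction). There 0 were lower (0 also at an unadjusted p), against 10.8%. The median difference was 0.78, against 0.04 over all probe sets tested. Dhcr7 was not called over this step, at -0.03 with a 95% interval from -0.29 to 0.24.

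The order of levels was therefore SI3 above a pair of lower parts for 8 genes. SI1 and SI2 were not called different for 7 of these, and Hsd17b7 had SI1 above SI2. Its means were 709.7 ± 56.82 in SI1, 537.5 ± 83.29 in SI2 and 930.1 ± 47.74 in SI3, with no overlap between any of the parts. Without overlap SI1 also lay above SI2 for Msmo1 and Dhcr7, 3 of 9 genes in all, against 16.6% of all probe sets, and SI3 above SI2 for 8 of 9, against 22.6%. That dip was not called without any 1 of the 3 pools (adjusted p = 0.0796, 0.241 and 0.174 without HF-PO, HF-OO and HF-SO). It also was not shared by all probe sets of the gene: one of the other probe sets went from 455.3 to 501.1 between SI1 and SI2, a difference of 0.13 (adjusted p = 0.359), and another from 295.9 to 250.8, at -0.23 (adjusted p = 0.116). For Dhcr7 the order was SI1 highest, although SI2 did not pass against SI1 (-0.37, adjusted p = 0.0721), and SI2 and SI3 overlapped.

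Whether the second step exceeded the first was tested in the same limma fit, a contrast added after the values had been seen. The step from SI2 to SI3 exceeded that from SI1 to SI2 for 4 of the 9 genes, against 1.53% of all probe sets. These were Fdft1 (by 1.63, adjusted p = 0.00548), Hsd17b7 (1.18, 0.0171), Msmo1 (0.84, 0.0381) and Sqle (1.23, 0.0451). A low SI2 enters both steps and so also raises this contrast. The first step was negative for Fdft1 (-0.166), Hsd17b7 (-0.398) and Msmo1 (-0.145) and positive for Sqle (0.411). A further 3 had adjusted p between 0.0547 and 0.0629, namely Tm7sf2, Nsdhl and Cyp51, while Lss (0.332) and Dhcr7 (0.372) were farther from the threshold. With any 1 pool left out, 0 of the 9 passed. Over the 3 parts together the moderated F test called 9 of 9, with adjusted p from 0.000119 for Fdft1 to 0.0458 for Dhcr7, against 40.7% of all probe sets.

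The other probe sets of these genes gave a check on the choice of the brightest. The 9 genes had 20 probe sets, of which 15 passed the filter on low values. Of those, 13 were called higher in SI3 than in SI1, 1 lower (Dhcr7, its sole probe set) and 1 neither. The shares over all probe sets tested were 25.0% higher and 19.2% lower. These counts include the brightest probe sets already described, 8 higher and 1 lower, so only the remaining ones add to them. For Fdft1 the other bright probe set went from 1044 to 3053, a difference of 1.53, and for Cyp51 the dimmer one from 321.1 to 552.9, at 0.76. Lss had 0.63 on its dimmer probe set against 0.58 on the brightest. The exception was the dimmer probe set of Msmo1, with means of 117.6 and 124.2 in SI1 and SI3, a difference of 0.007 (adjusted p = 0.988). Probe sets below the filter were not tested and went both ways, from -0.753 (Lss) to 1.166 (Cyp51).

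Across the 9 arrays most of the genes followed one profile. Of the 36 pairs, 23 had a Pearson r above 0.8, the highest being Fdft1 with Nsdhl (0.99) and the lowest Sqle with Dhcr7 (-0.53). Against the mean of the other 8, r was between 0.81 and 0.98 for 8 genes, and it was -0.31 for Dhcr7. These are descriptions over 9 arrays that share parts and pools, so genes with like differences between parts correlate. No correlation within a part was computed, and no share over all pairs of genes is given here. Among 2877 other genes with a range of at least 1 on the log2 scale, the profile most like the mean of the 9 was that of Cldn2, a tight-junction protein that forms cation pores (r = 0.97), with means of 1577 ± 135.6, 1155 ± 185.5 and 5143 ± 643.6 from SI1 to SI3. It was followed by Fbxl21 (0.97), the cysteine dioxygenase Cdo1 (0.96), Idi1 (0.96), the bile acid receptor Nr1h4 (0.96) and Fdps (0.96). Idi1 and Fdps, which act on the way to the farnesyl diphosphate used by Fdft1, thus ranked 4 and 6 of 2877. Of the 8 pathway genes among the 2877, the others ranked 14 (Mvk), 164 (Insig2), 441 (Mylip), 480 (Srebf2), 1256 (Abca1) and 2215 (Insig1, r = -0.74).

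**Figure D3:**
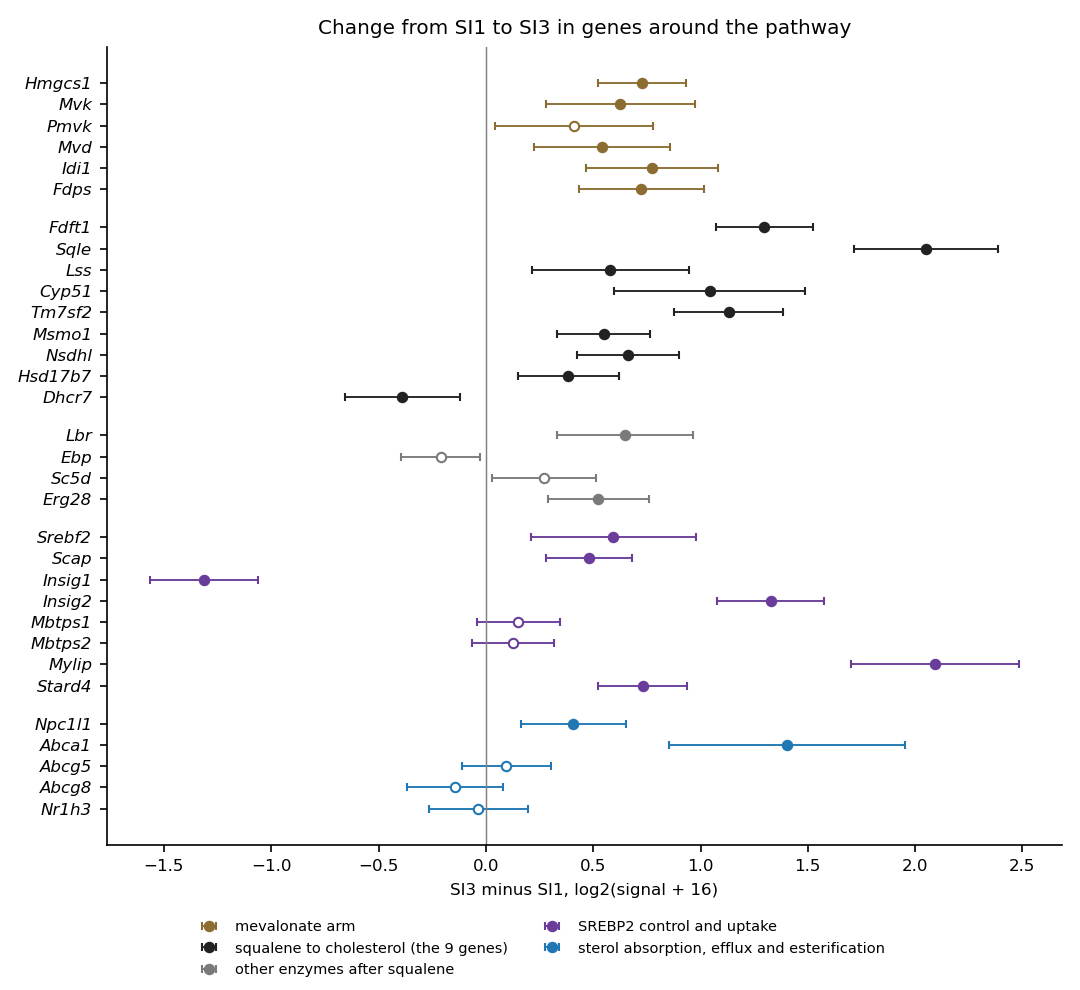
Difference between SI3 and SI1 in log2(signal + 16) (horizontal axis) for the 9 genes and for other genes of sterol metabolism, grouped and coloured by list, with 95% intervals; filled points passed an adjusted p of 0.05. Sqle (2.05) and Mylip (2.09) lie farthest to the right and Insig1 (-1.31) farthest to the left.

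The genes upstream moved the same way. In the mevalonate arm, which supplies farnesyl diphosphate, 5 of 6 measured genes were higher in SI3 than in SI1 and 0 lower, with a median difference of 0.68. Here and in the lists that follow, the share over all probe sets tested was 25.0% higher and 19.2% lower. Hmgcs1, the synthase that feeds the arm, rose by 0.73 (limma adjusted p = 0.000763), from 7333 ± 565.7 to 12110 ± 122.8. Idi1 rose by 0.78, Fdps by 0.72, Mvk by 0.63 and Mvd by 0.54, and Pmvk had 0.41 (adjusted p = 0.0701). The differences of Fdft1 and Sqle, 1.30 and 2.05, were larger than each of these, which was not tested. From SI1 to SI2, 0 of the 6 were called in either direction.

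Of 4 other proteins of the steps after squalene, 2 rose, Lbr and the scaffold protein Erg28 (0.52, limma adjusted p = 0.00556). The isomerase Ebp, which shifts a double bond shortly before Dhcr7 acts, had -0.21 (adjusted p = 0.0648) and was lower in SI2 than in SI1 (-0.40, adjusted p = 0.019). The desaturase Sc5d, which makes the substrate of Dhcr7, had 0.27 (adjusted p = 0.0697).

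Regulators of the pathway moved in both directions. Of 8 genes for SREBP2 control and sterol uptake, 5 rose from SI1 to SI3 and 1 fell, against 25.0% and 19.2% of all probe sets. Srebf2, which encodes SREBP2, rose by 0.59 (limma adjusted p = 0.0232) and its escort Scap by 0.48 (adjusted p = 0.004). The retention proteins split: Insig1 was lower by a log2 difference of -1.31 (adjusted p = 0.000134), from 2415 ± 327.5 to 956.4 ± 0.70, while Insig2 rose by 1.33 (adjusted p = 0.000124), from 979.0 ± 44.59 to 2484 ± 204.0. Mylip, a ligase that marks the LDL receptor for breakdown, rose by 2.09, and the sterol carrier Stard4 by 0.73. Of 5 genes for absorption and efflux, the cholesterol importer Npc1l1 rose by 0.41 and the exporter Abca1 by 1.40, and the exporters Abcg5 (0.10) and Abcg8 (-0.14) and the oxysterol receptor gene Nr1h3 (-0.035, limma adjusted p = 0.794) did not pass.

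Markers of other cell types changed between the same parts, where 44.3% of all probe sets tested were called (25.0% higher, 19.2% lower). Lists such as tuft cell and enterocyte lie near those shares. Goblet cell markers rose in 6 of 6, with summed signals of 83228 to 96811 in SI1 and 138098 to 148331 in SI3, and Paneth cell markers in 4 of 4, from 28425 to 37576 up to 89975 to 106461. Proliferation markers rose in 5 of 6 and fell in 1, with sums of 4496 to 5994 in SI1, 4807 to 5774 in SI2 and 6875 to 9050 in SI3, and stem cell markers rose in 3 of 5 and fell in 1 (7832 to 10773 against 12407 to 14596). All 6 of 6 markers of intraepithelial lymphocytes and T cells fell (13665 to 17689 against 4450 to 6660), and of 5 macrophage markers 4 fell and 1 rose. Exocrine pancreas markers fell in 7 of 7, with sums of 33808 to 43225 in SI1, 860 to 1166 in SI2 and 916 to 981 in SI3. Of 5 enterocyte markers, 2 rose and 1 fell (157245 to 189677 against 182883 to 199353). In the remaining lists, of enteroendocrine markers 3 of 5 fell, of smooth muscle 2 of 6 fell, of tuft cells 1 of 4 rose, of B and plasma cells 2 of 3 rose and 1 fell, of adipocytes 1 of 3 rose and 1 fell, and of hepatocytes the 1 tested rose while Alb and Ahsg did not pass the filter on low values. Each sum follows the brightest probe sets of its list and does not measure cell numbers. For stem cells, the SI1 mean was 7443 for Olfm4 and 363.7 for Lgr5. The part of these cell types in the changes of the 9 genes was not tested.

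Diets were compared within each part, as the study asks how the kind of fat acts along the intestine. Each diet had 1 array per part, so the values below describe arrays and carry no test. A signal counted as set apart when it differed at least 1.5-fold (on signal + 16) from both other diets in 1 direction. Of 27 pairs of gene and part, 0 were set apart in HF-PO, 0 in HF-OO and 0 in HF-SO, against 2.00%, 1.66% and 1.68% of all probe sets. The median ratio of the highest to the lowest diet over the 9 genes was 1.15 in SI1, 1.19 in SI2 and 1.13 in SI3, and over all probe sets 1.20, 1.19 and 1.20.

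The widest spreads were seen in single genes. In SI1, Cyp51 was at 1652.6 with HF-SO, 1206.7 with HF-PO and 909.3 with HF-OO, a ratio of 1.80 between the extremes. Sqle followed the same order in SI1, with a ratio of 1.51. In SI3, Dhcr7 was at 1746.9 with HF-PO, 1425.1 with HF-OO and 1174.9 with HF-SO, a ratio of 1.48, and in SI2 it kept that order with 1.23. Dhcr7 was thus highest with palm oil, the least unsaturated diet by its P/S value, in all 3 parts. In SI1 the diets were close, at 1948.4 with HF-PO, 1905.1 with HF-SO and 1791.2 with HF-OO, a ratio of 1.09 between the extremes. The share of all probe sets with the same diet highest in every part is not given here.

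**Figure D4:**
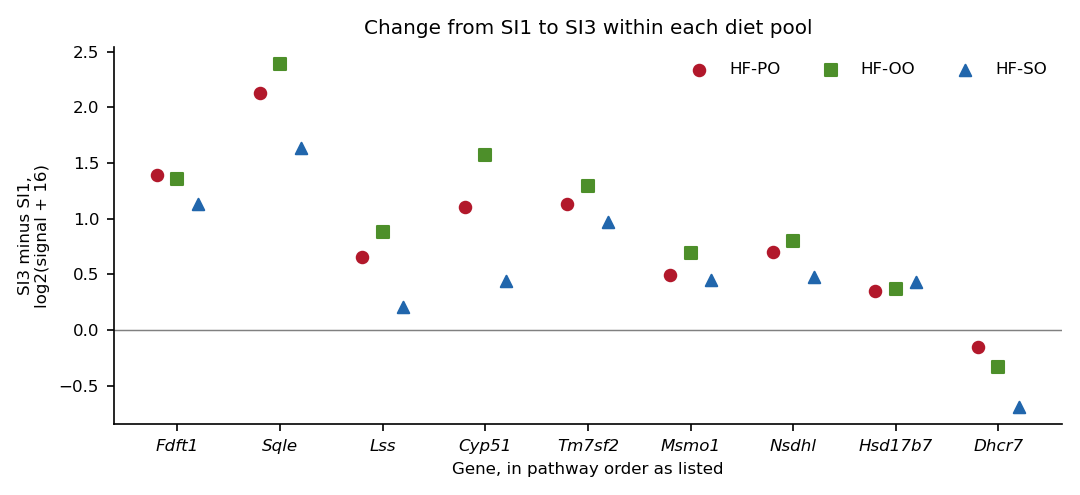
Difference between SI3 and SI1 in log2(signal + 16) (vertical axis) within each of the 3 diet pools, for the 9 genes in pathway order as listed; each point is the difference of 2 arrays. The HF-SO point is the lowest for 8 of the 9 genes.

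Safflower oil gave the highest signal of the 3 diets in SI1 for 7 of the 9 genes, against 34.4% of all probe sets, and the lowest in SI3 for 7 of 9, against 29.2%. In SI1 HF-OO was lowest for 7 of 9, against 31.6%, in SI3 it was highest for 6 of 9, against 32.8%, and in SI2 HF-PO was lowest for 5 of 9, against 35.9%. The signed difference SI3 minus SI1 was lowest in the HF-SO pool for 8 of 9 genes, all but Hsd17b7, against 32.0% of all probe sets. In part this count follows from the orders within SI1 and SI3 just given. For Dhcr7, one of the 8, lowest means the most negative, so its fall was largest there. For Cyp51 it was 0.45 in HF-SO, 1.11 in HF-PO and 1.57 in HF-OO, and for Sqle 1.63, 2.13 and 2.39. For Lss it was 0.21, 0.65 and 0.88. Olive oil had the highest signed difference in 6 of 9, against 31.8%. These orders were picked out after the values had been seen. The genes share their arrays, so these counts rest on 2 arrays per pool, and the difference between pools was not tested. Since SI3 and SI1 did not overlap for any of the 9 genes, the sign of the difference had to be the same in every pool. It was positive in all 3 for the 8 genes that rose, and negative for Dhcr7 (-0.16, -0.33 and -0.69 in HF-PO, HF-OO and HF-SO).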

How the data were processed

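RNA of scraped mucosa from 3 parts of the small intestine and 3 high-fat diets was hybridised to 9 Affymetrix arrays, each a pool of 6 mice. Each deposited value is a linear intensity, the signal the authors obtained with MAS5 per the submitters' processing notes (no version given). Genome build and detection calls are not given in the sources used here. After 64 array controls were left out, 45037 probe sets were analysed as log2(signal + 16). The platform annotation gave 34945 of them 1 gene symbol, 932 several and 9160 none, and 34741 matched RefSeq by gene identifier. Probe sets with a mean at or above the median of 6.80 were tested, which left 22519. A linear model with part and diet pool as terms was fitted in limma 3.58.1 (R 4.3.3, 4 residual degrees of freedom), with two-sided moderated tests and Benjamini-Hochberg adjustment. The model was tested on simulated data, and no result of that test is given here. Python 3.11.15 drew the plots and searched the promoters. Alternatives were 2 other pseudocounts, no filter, 2 normalizations, no block, all probe sets of a gene, and each pool left out.

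The 9 genes and the lists, taken from general knowledge, were chosen with earlier results of these data known. Named are the 9 genes, list genes and the 6 genes with the most similar profile. Some list genes were not analysed here. Precision is limited by having 3 arrays per part and 1 per diet within it.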

Additional observations from a re-analysis of the deposited data

How the results depend on the processing

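The higher signal in SI3 than in SI1 passed under all 10 alternatives for Fdft1, Sqle, Cyp51, Tm7sf2 and Nsdhl. Of 90 such values for the 9 genes, 80 kept their call, 10 lost it and 0 changed sign. Without a filter on low values, which doubles the number of tests, 0 of the 9 genes were lower in SI3 than in SI1, 0 lower in SI2 than in SI1, and 0 had a larger second step than first, and Lss, Hsd17b7 and Dhcr7 were not called between the ends (adjusted p = 0.0843, 0.0883 and 0.111). With the median over all probe sets of a gene, 0 were lower in SI2 than in SI1, 2 had a larger second step, Msmo1 was not called between the ends (0.28, adjusted p = 0.19), and 2 pairs of gene and part were set apart in HF-PO. A pseudocount of 64 gave 7 genes with a larger second step, as did the fit without the diet pool as a block, which gave 7. With 1 pool left out in turn, the genes higher in SI3 than in SI1 numbered 6 to 7, those lower 0 to 1, those lower in SI2 than in SI1 0 to 0, and those with a larger second step 0 to 0, with fewer arrays in each fit. Signs turned in values that were not called: Dhcr7 between SI3 and SI2 (0.013 with arrays centred on their medians, and -0.093 to 0.041 with 1 pool left out), and between SI2 and SI1 Fdft1 (0.066 with all probe sets) and Lss (-0.181 to 0.176 with 1 pool left out). Over all probe sets, calls between SI3 and SI1 numbered 9969 and, without a filter, 6768. Between SI2 and SI1 they numbered 3375 and 604, and between SI3 and SI2 4787 and 1681. The fewest with 1 pool left out were 5596, 545 and 1329, all without HF-OO. Except where stated, the cause was not tested. Dim probe sets of these genes, with signals near or below the filter, limit what the median over probe sets can show.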
